A study of Mus musculus with 28 samples.

Results

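The secretory lineage of the colon was followed through 10 genes, 3 transcription factors that set or sustain secretory fate (Atoh1, Spdef and Gfi1) and 7 products of goblet cells (Muc2, Tff3, Agr2, Fcgbp, Clca1, Zg16 and Reg4). They were the listed genes found by symbol among the 13519 genes of the count table, and all 10 were in it and passed the filter on low counts. The cells were colon epithelium organoids of C57BL/6N mice, and every donor carried VillinCreERT2, a Cre driven in intestinal epithelium, together with APCflox/flox. AC organoids had no further allele, PAC organoids also carried Trp53LSL-R172H/+, BAC organoids also carried BraffloxV600E/+, and BPAC organoids carried both. Each of 14 cultures was treated for 24 hours with EtOH as the vehicle or with 3.5 µM 4-hydroxytamoxifen (4-HT), which activates Cre, and RNA was taken 3 days later. In all 7 mice gave organoids, a single animal for AC and 2 animals for PAC, BAC and BPAC alike, and 2 cultures from each animal are called duplicates 1 and 2. Each arm thus held 2 samples for AC and 4 for the other genotypes, and the p-values measure the spread between cultures, of which 2 share each donor. The paper describes organoids from 2 donor mice and 2 passages for each genotype. The labels name a single donor for AC and do not say whether the duplicates are those passages. The ages of the mice are not given in the sources used here.

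Goblet cells fill the colon crypt with mucus and are renewed from stem cells. A progenitor in which Notch signaling is low expresses ATOH1, the basic helix-loop-helix factor that commits it to the secretory fate, and GFI1 and SPDEF act after it to keep the cell from the enteroendocrine path and to drive goblet maturation. Mature goblet cells then make the gel-forming mucin MUC2, the trefoil peptide TFF3, the disulfide isomerase AGR2 that mucin folding needs, and the secreted mucus proteins FCGBP, CLCA1 and ZG16. REG4, a secreted lectin, marks deep crypt secretory cells and enteroendocrine cells of the colon as well as goblet cells. Loss of APC frees beta-catenin, which keeps crypt cells in a progenitor state together with TCF factors.

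The promoter windows of Atoh1 and of Muc2 and Fcgbp, the products whose windows held CAGCTG, are shown. The data below set the first factor of the lineage against its products. A RefSeq window of 300 bases, from 250 before to 50 after the gene start in GRCm38.p6, was given for 7 of the 10 genes, with 2 windows for Gfi1. None was given for Tff3, Clca1 or Zg16. Each window was searched on both strands for the exact letters CAGCTG, an E-box core that ATOH1 can bind, CTTTGA, a core of TCF sites, and TGTTTA, a core of FOXA sites, and matches stand in capitals. Both matches in Atoh1 are CTTTGA, starting 148 and 110 bases before the gene start at chr6:64728875-64729174 on the plus strand. The match in Muc2 is CAGCTG at 112 bases before the start, in chr7:141690090-141690389 on the plus strand. In Fcgbp it is CAGCTG at 208 bases before the start, in chr7:28070986-28071285 on the plus strand.
Atoh1: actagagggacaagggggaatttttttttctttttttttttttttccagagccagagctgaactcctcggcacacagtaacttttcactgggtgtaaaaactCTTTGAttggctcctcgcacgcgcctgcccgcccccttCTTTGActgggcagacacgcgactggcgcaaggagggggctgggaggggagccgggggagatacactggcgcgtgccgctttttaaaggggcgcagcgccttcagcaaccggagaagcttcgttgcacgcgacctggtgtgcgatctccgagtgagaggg
Muc2: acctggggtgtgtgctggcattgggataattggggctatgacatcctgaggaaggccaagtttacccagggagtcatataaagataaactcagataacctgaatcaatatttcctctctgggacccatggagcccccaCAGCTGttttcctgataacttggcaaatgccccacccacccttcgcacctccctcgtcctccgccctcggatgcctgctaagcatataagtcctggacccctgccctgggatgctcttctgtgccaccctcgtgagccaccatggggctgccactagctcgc
Fcgbp: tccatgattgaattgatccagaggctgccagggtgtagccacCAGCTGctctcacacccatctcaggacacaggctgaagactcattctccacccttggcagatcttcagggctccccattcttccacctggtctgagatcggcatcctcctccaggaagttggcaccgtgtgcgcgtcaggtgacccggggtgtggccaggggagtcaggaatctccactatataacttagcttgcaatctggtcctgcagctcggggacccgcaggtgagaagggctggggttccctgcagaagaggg
CTTTGA was in 1 of the 8 windows of these genes and in 16.0% of all 32851 windows. CAGCTG was in 2 of the 8 and in 16.3% of all windows, and TGTTTA was in 1 of the 8, that of Reg4, and in 13.4% of all. The windows of Agr2, Spdef and Gfi1 held none of the searched letters and, like that of Reg4, are not shown. These matches are a description of the letters and not of binding.

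Library totals ranged from 20577276 to 40068718 counts, and the 4-HT samples of duplicate 1 with the Braf allele (37438687 to 40068718) were deeper than those without it (26594188 to 30306835). Levels are given in CPM, counts per 1000000 counts of the library after TMM scaling, a scaling that sets the middle of the genes equal between samples. Apc was at 27.9 to 49.7 CPM over the whole gene with EtOH and at 51.4 to 73.8 CPM with 4-HT, which does not check a deletion of part of the gene. Of the epithelial genes Epcam, Cdh1, Krt8, Krt18, Krt19 and Cdx2, all 6 were present, at a summed 14665 to 26354 CPM. Of 10 fibroblast, immune and endothelial genes 3 were in the table, at a summed 3.32 to 8.52 CPM. The 4-HT samples of PAC donors 1 and 2 in duplicate 1 stood apart. Both held Xist and Y-linked counts, and they differed by 2.38 times the sampling noise where the next closest pair of a group differed by 8.53 times, so whether they are separate samples of their labelled donors is in doubt. Without both duplicate 1 cultures of PAC, the PAC log2 fold changes were 0.13 for Muc2 (adjusted p = 0.861), -0.29 for Tff3 (0.621), 0.33 for Agr2 (0.468), -0.95 for Clca1 (0.446) and -0.95 for Zg16 (0.368, edgeR), and those of the other genes stand with each gene. The 4-HT sample of BPAC donor 1 duplicate 2 was the lowest of its group in Atoh1, Spdef, Gfi1, Agr2, Muc2 and Reg4. It was the highest of its group in Clca1 and Zg16. Results for BPAC are given without that culture too where it matters. In bulk RNA, fewer cells of a type and less RNA per cell cannot be told apart.

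With EtOH, products and factors lay on different scales. Per kb of exon, Tff3 had the highest mean level, 952 CPM per kb ± 272 (SD, n = 14), followed by Zg16 with 662 ± 303, Agr2 with 349.5 ± 62.0, Muc2 with 104 ± 29.9 and Clca1 with 98.1 ± 57.6 CPM per kb. Fcgbp followed with 51.5 ± 15.1 and Reg4 with 39.5 ± 24.2 CPM per kb. The factors were lowest, with Spdef at 9.43 ± 1.59, Atoh1 at 8.65 ± 1.61 and Gfi1 at 0.778 ± 0.153 CPM per kb. The value for Muc2 rests on an annotated exon length of 7.127 kb in a locus that the annotation tags as fragmented. Neighbors in this order were not always apart: Muc2 exceeded Clca1 in 7 of 14 samples, Fcgbp exceeded Reg4 in 9, and Spdef exceeded Atoh1 in 10. With 4-HT the order at the top depended on genotype. Over all samples Agr2 had 627 ± 191 CPM per kb and Tff3 539 ± 218, and Agr2 stood above Tff3 in 8 of 14 samples, which were the 8 with the Braf allele. The mean level of Tff3 against Agr2 was 704 against 440 CPM per kb in AC, 781 against 461 in PAC, 412 against 777 in BAC and 342 against 737 in BPAC. At the bottom, Spdef at 24.1 ± 6.92, Atoh1 at 22.6 ± 4.63 and Fcgbp at 22.4 ± 7.30 CPM per kb lay within their spread of each other over all samples. The mean of Fcgbp was above that of Atoh1 in AC and PAC (30.1 against 25.0 and 27.97 against 25.24 CPM per kb) and below it in BAC and BPAC (18.2 against 21.2 and 16.97 against 20.02). Gfi1 remained the lowest at 1.84 ± 0.622 CPM per kb.

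**Figure D1:**
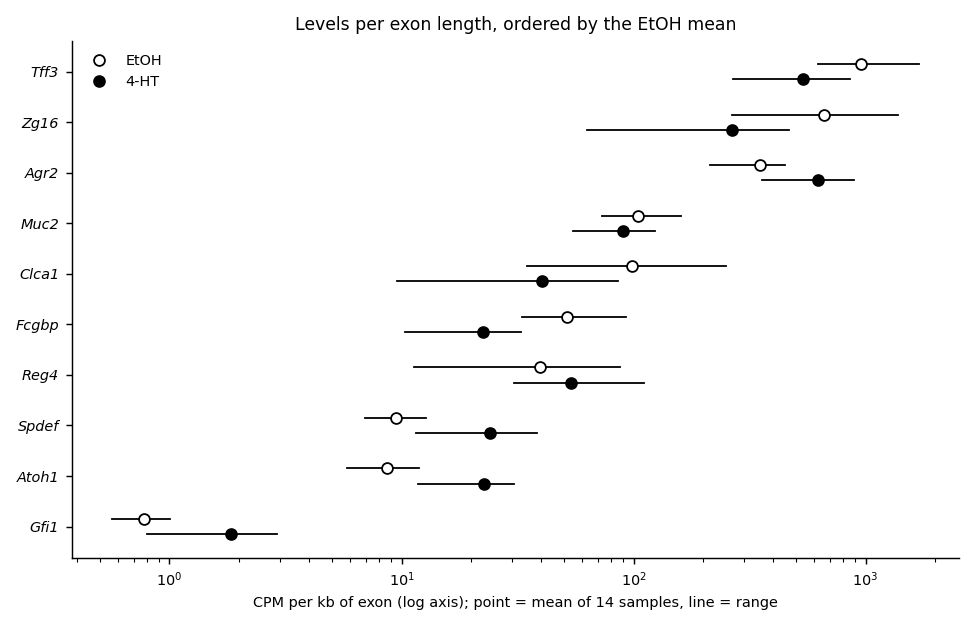
Mean CPM per kb of exon on a log axis (points, open for EtOH and filled for 4-HT, n = 14 samples each, lines from the lowest to the highest sample) for the 10 genes. Over all genotypes Tff3 has the highest mean with EtOH (952) and Agr2 with 4-HT (627), though in AC and PAC alone Tff3 is still above Agr2 with 4-HT (704 against 440 and 781 against 461).

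The comparison of 4-HT with EtOH asks how these genes responded when the conditional alleles were recombined. Atoh1 rose in all 4 genotypes, Spdef rose in PAC, BAC and BPAC, and Gfi1 rose in PAC and BPAC. Of the 7 products Agr2 was the one that rose in the edgeR fit without the culture block, in BAC and BPAC, and other fits also called Reg4 higher in PAC. In AC, 1 of the 10 genes passed the threshold (edgeR, adjusted p under 0.01), Atoh1, which rose. In PAC, 3 passed it, Atoh1, Spdef and Gfi1, all higher. In BAC, 6 passed it, of which Atoh1, Spdef and Agr2 rose and Tff3, Fcgbp and Zg16 fell. In BPAC, 7 passed it, with Atoh1, Spdef, Gfi1 and Agr2 higher and Tff3, Fcgbp and Zg16 lower. Of all genes tested, 3% rose and 4.25% fell in AC, 11.2% and 12.2% in PAC, 20.3% and 21.5% in BAC, and 22% and 23% in BPAC. Those calls were 406 higher and 574 lower in AC, 1511 and 1655 in PAC, 2751 and 2909 in BAC, and 2979 and 3110 in BPAC. Scaled by library size alone they were 1511 and 302, 3388 and 737, 3881 and 2066, and 4331 and 2038, as the median of all genes then moved by 0.13 to 0.23 on the log2 scale. With the culture as a block, which compares each 4-HT sample with the EtOH sample of the same culture, 3, 8, 8 and 9 of the 10 genes passed for AC, PAC, BAC and BPAC. The share of all genes called in the block fit is not given here, so these counts stand without a baseline. Without the duplicate 1 cultures of PAC no gene passed in PAC. Without either culture of AC none passed in AC, where the spread then came from the other genotypes alone.

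**Figure D2:**
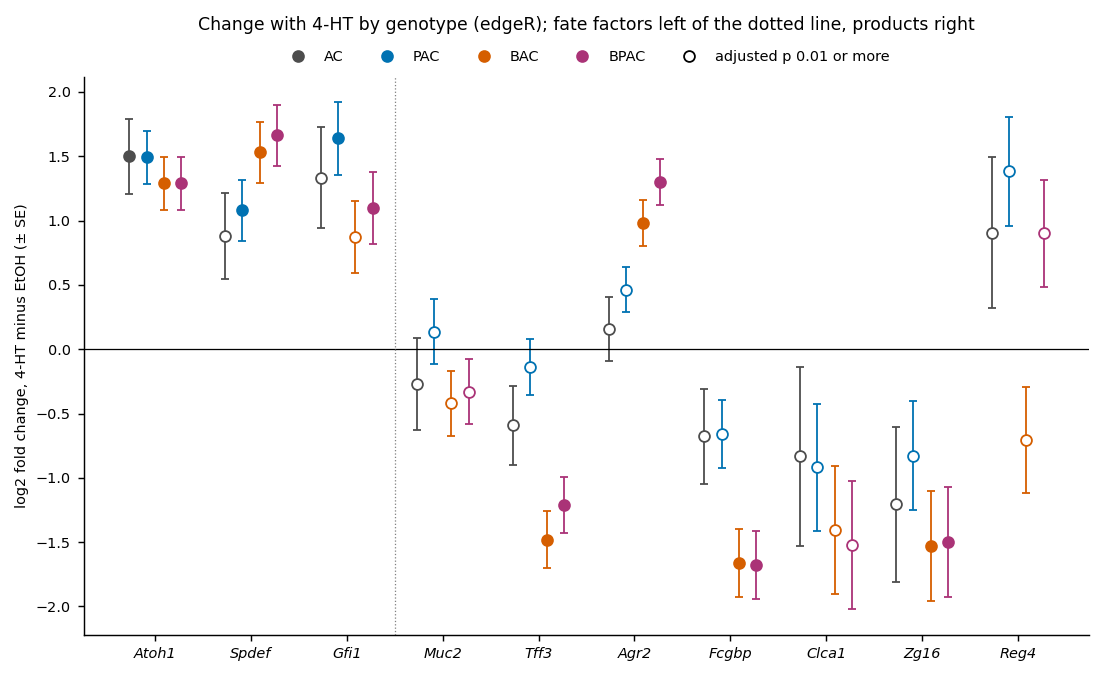
Log2 fold change of 4-HT against EtOH with its standard error (edgeR) for each gene in AC, PAC, BAC and BPAC, filled where the adjusted p was under 0.01 and open otherwise. The 3 factors lie between 0.87 and 1.66 in all genotypes (Spdef and Gfi1 open in AC, Gfi1 open in BAC), while Tff3, Fcgbp, Clca1 and Zg16 lie below 0, lowest in BAC and BPAC.

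Atoh1 (ENSMUSG00000073043, chromosome 6, 64729125 to 64731245, plus strand, protein coding) was higher with 4-HT in each of the 14 cultures. Values within a group are given in the order donor 1 duplicates 1 and 2, then donor 2 duplicates 1 and 2. In AC it was at 15.2 and 22.3 CPM with EtOH and at 59.2 and 46.9 CPM with 4-HT. In PAC the EtOH samples had 15.7, 25.2, 16.4 and 19.0 CPM and the 4-HT samples 62.2, 45.6, 64.6 and 41.7 CPM. No 4-HT sample of these genotypes reached down to the EtOH range, and the 4-HT levels of duplicate 1 were above those of duplicate 2. BAC organoids had 15.4, 20.1, 17.1 and 21 CPM with EtOH and 44.9, 40.9, 46.8 and 47.3 CPM with 4-HT. BPAC organoids had 12.4, 19.0, 21.2 and 16.8 CPM with EtOH and 51.0, 25.0, 45.8 and 48.0 CPM with 4-HT. The groups did not overlap in BAC or BPAC either, and 1 BPAC sample, at 25.0 CPM, came close. For AC, PAC, BAC and BPAC the log2 fold changes were 1.5 ± 0.29 (SE), 1.49 ± 0.21, 1.29 ± 0.21 and 1.29 ± 0.21, with adjusted p of 0.0015, 1.5e-05, 1.2e-05 and 1.0e-05 (edgeR). In AC the adjusted p was 0.173 without duplicate 1 and 0.0183 without duplicate 2, where a single sample stood in each arm and was assumed to vary like those of the other genotypes. In PAC it was 0.0403 without both duplicate 1 cultures, with a log2 fold change of 0.98. Over all cultures the mean change was 1.72 on the log2 scale in duplicate 1 and 1.02 in duplicate 2.

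Spdef (ENSMUSG00000024215, chromosome 17, 27714352 to 27728955, minus strand), the ETS factor of goblet maturation, was also higher with 4-HT in each of the 14 cultures, and it rose in PAC, BAC and BPAC. In AC it went from 23.4 and 27.2 CPM to 54.1 and 39.2 CPM. In PAC the EtOH values of 18.7, 29.5, 20.5 and 21.6 CPM stood against 55.8, 42.7, 57.2 and 35.0 CPM with 4-HT. The 4-HT values cleared the EtOH range in both genotypes. BAC samples went from 18.5, 20.3, 23.2 and 21.7 CPM to 59.6, 54.7, 66.6 and 61.4 CPM. BPAC samples went from 19.2, 19.3, 25.1 and 16.0 CPM to 73.4, 26.7, 88.2 and 63.1 CPM, the second of them only just above the EtOH range. It changed by 0.88 ± 0.33 on the log2 scale in AC (adjusted p = 0.0688), 1.08 ± 0.24 in PAC (0.0010), 1.53 ± 0.24 in BAC (8.6e-06) and 1.66 ± 0.24 in BPAC (2.5e-06, edgeR). Without PAC donor 1 duplicate 1 or PAC donor 2 duplicate 1, the PAC value missed the threshold with log2 fold changes of 0.92 and 0.94 and adjusted p of 0.0181 and 0.0178 (edgeR). Without both it was 0.61 with an adjusted p of 0.271. Whether the rise was larger with the Braf allele was tested as the difference of the changes, 0.62 ± 0.26 on the log2 scale with an adjusted p of 0.118.

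Gfi1 (ENSMUSG00000029275, chromosome 5, 107716657 to 107726036, minus strand), a zinc finger repressor, was the lowest of the factors, with 38 to 287 counts per sample. Its EtOH level was 2.55 and 2.90 CPM in AC and 1.80 to 3.21 CPM in PAC, and the 4-HT level was 9.02 and 4.71 CPM in AC and 5.51 to 9.25 CPM in PAC. In BAC it went from 2.48 to 2.84 CPM with EtOH to 3.54 to 6.14 CPM with 4-HT, without overlap. In BPAC it went from 1.81 to 3.19 CPM to 2.54 to 6.84 CPM, and the lowest 4-HT sample lay inside the EtOH range. Its log2 fold change was 1.33 ± 0.39 in AC (adjusted p = 0.0213), 1.64 ± 0.28 in PAC (0.00011), 0.87 ± 0.28 in BAC (0.0105) and 1.10 ± 0.28 in BPAC (0.0018, edgeR). With the culture block the BAC value passed with an adjusted p of 0.0081, and DESeq2 called AC (0.0075) and BAC (0.0044). Without both PAC duplicate 1 cultures the PAC log2 fold change was 1.18 with an adjusted p of 0.0798 (edgeR). Without BPAC donor 1 duplicate 1 or donor 2 duplicate 2 the BPAC values were 0.98 and 0.92, with adjusted p of 0.0157 and 0.0228 (edgeR).

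**Figure D3:**
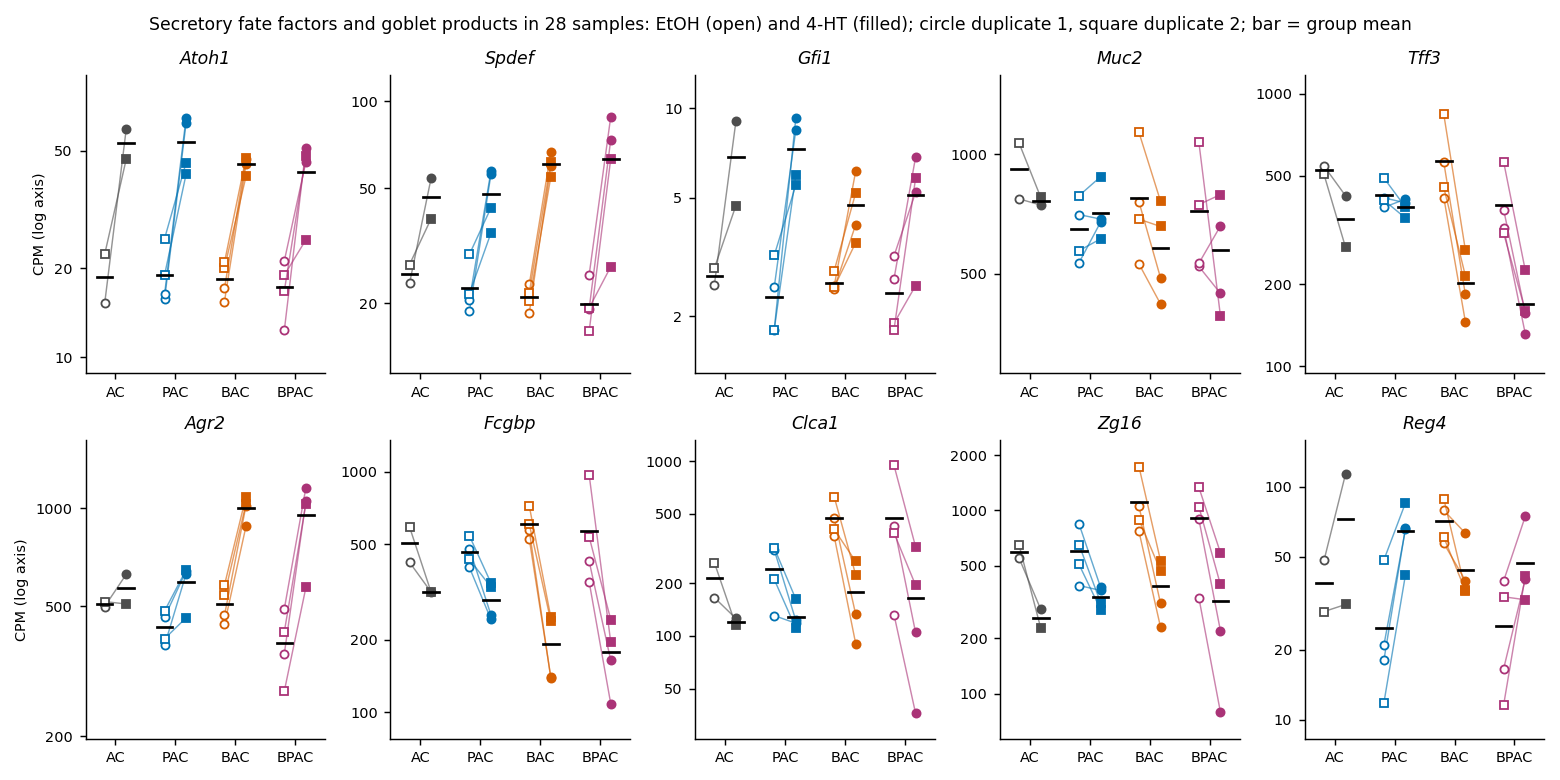
CPM of each gene on a log axis in the 28 samples, with EtOH open and 4-HT filled, circles for duplicate 1, squares for duplicate 2, lines joining the samples of a culture and bars at group means. Atoh1, Spdef and Gfi1 are higher with 4-HT in all 14 cultures, Fcgbp, Clca1 and Zg16 are lower in all 14, and Muc2 is higher in 5 and lower in 9.

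Muc2 (ENSMUSG00000025515, chromosome 7, 141690340 to 141754693, plus strand), the main gel-forming mucin, did not pass the threshold in any genotype. In AC it was at 772 and 1067 CPM with EtOH and at 745 and 779 CPM with 4-HT. PAC samples had 533, 787, 705 and 572 CPM with EtOH and 675, 879, 687 and 612 CPM with 4-HT. The EtOH and 4-HT ranges overlapped in all 4 genotypes. BAC samples had 529, 687, 759 and 1136 CPM with EtOH and 419.5, 658, 488 and 762 CPM with 4-HT. BPAC samples had 522, 1075, 531 and 747 CPM with EtOH and 446, 392, 659.6 and 792 CPM with 4-HT. In the fit its log2 fold changes were -0.27 ± 0.36, 0.14 ± 0.25, -0.42 ± 0.25 and -0.33 ± 0.25 in AC, PAC, BAC and BPAC, with adjusted p of 0.668, 0.704, 0.166 and 0.276 (edgeR). Muc2 was higher with 4-HT in 5 cultures and lower in 9. In BPAC the sign turned to 0.08 without donor 1 duplicate 2, where Muc2 had gone from 1075 to 392 CPM. In every one of the 14 cultures Muc2 changed less upward than Atoh1, by 0.69 to 2.26 on the log2 scale.

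Tff3 (ENSMUSG00000024029, chromosome 17, 31125306 to 31129646, minus strand), the trefoil peptide of the mucus layer, fell in BAC and BPAC. PAC samples had 415, 490.3, 382 and 407 CPM with EtOH and 398, 383, 410.4 and 349 CPM with 4-HT, and the ranges overlapped. BAC samples had 416, 453, 559 and 838 CPM with EtOH and 146, 215, 183 and 267 CPM with 4-HT. BPAC samples had 375, 307, 322 and 561 CPM with EtOH and 157, 160.2, 132 and 225 CPM with 4-HT. In BAC and BPAC each 4-HT sample lay below each EtOH sample. AC had 542 and 505 CPM with EtOH and 422 and 273 CPM with 4-HT. Tff3 changed by -0.59 ± 0.31 on the log2 scale in AC (adjusted p = 0.194, and 0.0057 with the culture block), -0.14 ± 0.22 in PAC (0.651), -1.48 ± 0.22 in BAC (4.9e-06) and -1.21 ± 0.22 in BPAC (4.9e-05, edgeR). Scaled by library size alone, the PAC value was 0.09.

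Fcgbp (ENSMUSG00000047730, chromosome 7, 28071236 to 28120862, plus strand), a large protein bound to MUC2 in mucus, was lower with 4-HT in each of the 14 cultures. AC samples had 421 and 591 CPM with EtOH and 316 CPM in both 4-HT samples. PAC samples had 401, 542, 479.7 and 432 CPM with EtOH and 243, 345, 254 and 332 CPM with 4-HT. BAC samples had 525, 606, 570.4 and 720.3 CPM with EtOH and 139.8, 239, 138 and 248 CPM with 4-HT. The groups did not overlap in any of these genotypes. BPAC samples had 425, 970.4, 349 and 536 CPM with EtOH and 164, 196, 109 and 243 CPM with 4-HT, again without overlap. For Fcgbp the log2 fold change was -0.68 ± 0.37 in AC (adjusted p = 0.219), -0.66 ± 0.26 in PAC (0.05, and 0.0020 with the culture block), -1.66 ± 0.27 in BAC (1.3e-05) and -1.68 ± 0.27 in BPAC (9.5e-06, edgeR). The PAC value without both duplicate 1 cultures was -0.53 with an adjusted p of 0.422.

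Clca1 and Zg16, a metalloprotease and a lectin of the mucus, were lower with 4-HT in each of the 14 cultures as well, with more spread. Zg16 (ENSMUSG00000049350, chromosome 7, 127050156 to 127087328, minus strand) went from 548 to 644 CPM to 228 to 288 CPM in AC and from 389 to 842 CPM to 287 to 380.1 CPM in PAC, without overlap. In BAC it went from 769 to 1736 CPM to 231 to 532 CPM, and in BPAC from 334 to 1338 CPM to 79.3 to 589 CPM, where the ranges overlapped. Its log2 fold changes were -1.21 ± 0.60 in AC (adjusted p = 0.176), -0.83 ± 0.42 in PAC (0.130), -1.53 ± 0.43 in BAC (0.0042) and -1.5 ± 0.43 in BPAC (0.0046, edgeR). With the culture block the AC and PAC values also passed, with adjusted p of 0.0027 and 0.0023. The BAC adjusted p was 0.0158, 0.0231 and 0.0192 without donor 1 duplicate 1, donor 2 duplicate 1 and donor 2 duplicate 2 (edgeR). The log2 fold changes there were -1.49, -1.46 and -1.43. The BPAC adjusted p was 0.0305 without donor 1 duplicate 1 and 0.0158 without donor 2 duplicate 2, at -1.36 and -1.53 (edgeR). Clca1 (ENSMUSG00000028255, chromosome 3, 145003817 to 145032776, minus strand) ranged widely before treatment, from 131 CPM in PAC to 948 CPM in BPAC. Its 4-HT levels ran from 111 to 163 CPM in AC and PAC and from 36.1 to 324 CPM in BAC and BPAC. The log2 fold changes of Clca1 were -0.83 ± 0.70 in AC (adjusted p = 0.455), -0.92 ± 0.49 in PAC (0.151), -1.40 ± 0.50 in BAC (0.0201) and -1.52 ± 0.50 in BPAC (0.0118, edgeR). With the culture block, Clca1 passed in PAC (adjusted p = 0.0047), BAC (2.2e-05) and BPAC (9.2e-06). Without BPAC donor 2 duplicate 1 it also passed in BPAC, at -1.5 with an adjusted p of 0.0046 (edgeR).

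Agr2 (ENSMUSG00000020581, chromosome 12, 35992907 to 36004087, plus strand), the endoplasmic reticulum isomerase, went the other way from the secreted mucus proteins. AC samples had 499.5 and 517 CPM with EtOH and 627 and 509 CPM with 4-HT, which overlapped. PAC samples had 464, 484, 379.9 and 398 CPM with EtOH and 641, 647, 629 and 461 CPM with 4-HT. In PAC the lowest 4-HT sample lay inside the EtOH range. BAC samples went from 440.3, 541, 469 and 580.5 CPM to 879.8, 1031, 1017 and 1084 CPM. BPAC samples went from 358, 275, 492 and 418 CPM to 1047, 571, 1155 and 1032 CPM. No 4-HT sample of BAC or BPAC overlapped the EtOH samples. Agr2 changed by 0.16 ± 0.25 on the log2 scale in AC (adjusted p = 0.723), 0.46 ± 0.18 in PAC (0.0418, and 0.00067 with the culture block), 0.98 ± 0.18 in BAC (5.5e-05) and 1.30 ± 0.18 in BPAC (1.2e-06, edgeR). Without AC duplicate 1 the AC value was -0.02. Mean changes over the 2 cultures of a donor were 0.15 in AC, 0.44 and 0.47 in PAC, 0.96 and 1.01 in BAC and 1.30 and 1.27 in BPAC on the log2 scale.

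Reg4 (ENSMUSG00000027876, chromosome 3, 98222156 to 98236748, plus strand) was higher with 4-HT in most cultures of AC, PAC and BPAC and lower in those of BAC. PAC samples had 18, 11.8, 20.9 and 48.6 CPM with EtOH and 66.5, 41.9, 65.6 and 85.3 CPM with 4-HT, higher in each culture. BAC samples had 57.3, 88.9, 79.2 and 60.8 CPM with EtOH and 39.6, 36.2, 63.3 and 35.9 CPM with 4-HT, lower in each culture. In BPAC 3 cultures were higher and 1 changed by -0.04 on the log2 scale, and in AC both were higher. BPAC samples had 39.5, 33.7, 16.6 and 11.6 CPM with EtOH and 74.6, 32.7, 40.1 and 41.3 CPM with 4-HT. AC samples had 48.3 and 29.1 CPM with EtOH and 114 and 31.2 CPM with 4-HT. No genotype passed the threshold in edgeR without the block, with log2 fold changes of 0.90 ± 0.59 in AC (adjusted p = 0.314), 1.38 ± 0.42 in PAC (0.0124), -0.71 ± 0.41 in BAC (0.150) and 0.90 ± 0.42 in BPAC (0.0699, edgeR). In PAC it passed with limma-voom at 1.53 (adjusted p = 0.0060), with DESeq2 at 1.39 (0.0083) and in edgeR scaled by library size alone at 1.6 (0.0035). With the culture block Reg4 passed in PAC (adjusted p = 0.00014) and BPAC (0.0029), while BAC had 0.0155. Without PAC donor 2 duplicate 2 the PAC value was 1.78 with an adjusted p of 0.0044, and without both PAC duplicate 1 cultures it was 1.07 with an adjusted p of 0.305.

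Atoh1 was then set against the mature products within each culture, as the change of Atoh1 minus the median change of the 7 products (log2 CPM with a prior count of 2). This gap was above 0 in each of the 14 cultures. It was 2.32 and 1.96 in AC, with a mean of 2.14 ± 0.26 (SD, n = 2). In PAC it was 2.04, 1.21, 2.02 and 1.35, with a mean of 1.65 ± 0.44 (n = 4). The median product of the PAC cultures changed by -0.04 to -0.36. In BAC it was 3.05, 1.95, 3.06 and 2.66, with a mean of 2.68 ± 0.52 (n = 4), and in BPAC 3.29, 1.58, 2.39 and 2.5, with a mean of 2.44 ± 0.70 (n = 4). In these cultures the median product changed by -0.93 to -1.61. These gaps are a description of the cultures, and no test of the gap was made. Duplicate 2 had the smaller mean gap in each genotype, 1.96 against 2.32 in AC, 1.28 against 2.03 in PAC, 2.31 against 3.05 in BAC and 2.04 against 2.84 in BPAC.

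**Figure D4:**
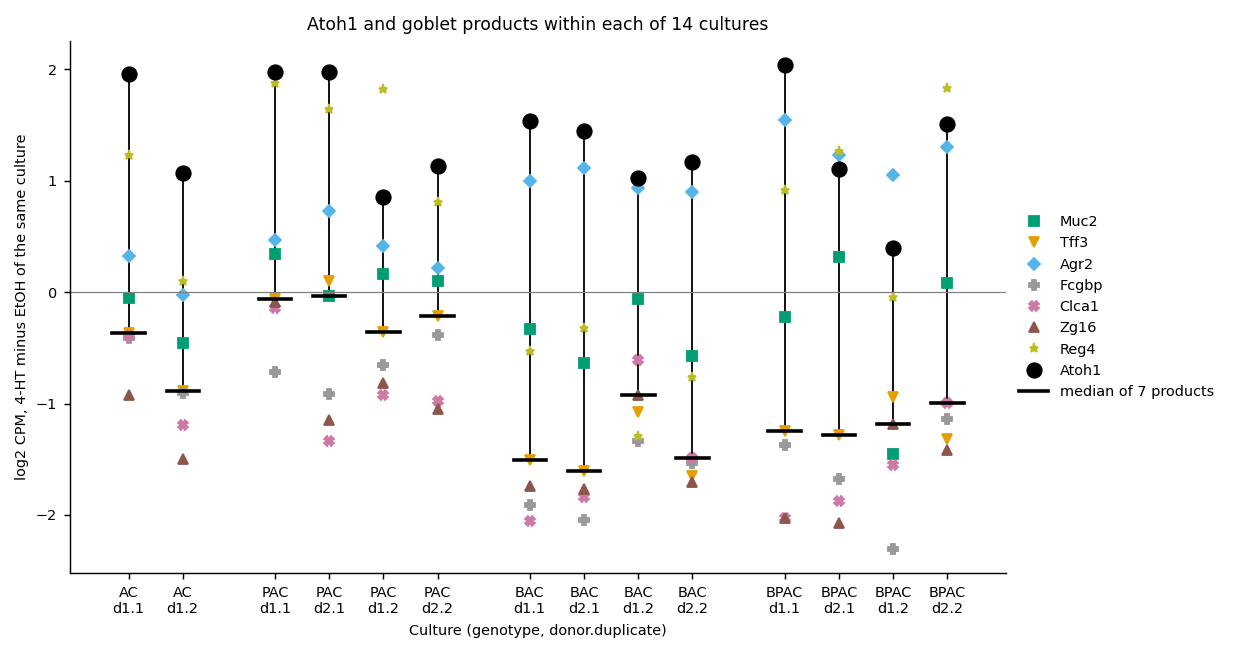
Change of Atoh1 (black circle), of each of the 7 products (colored marks) and of their median (black bar) in each of the 14 cultures, as log2 CPM with 4-HT minus EtOH; d1.2 is donor 1 duplicate 2. The line from bar to circle is the gap, 1.21 to 3.29, and Reg4 or Agr2 is the product nearest to Atoh1 or above it in each culture.

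All 7 products lay below Atoh1 in 10 of the 14 cultures. Muc2, Tff3, Fcgbp, Clca1 and Zg16 did so in all 14, with median differences of 1.69, 2.21, 2.70, 2.43 and 2.88 on the log2 scale. Agr2 lay below Atoh1 in 12 cultures, by a median of 0.46, and Reg4 in 11, by a median of 0.58. Spdef followed Atoh1 more closely, below it in 7 of 14 cultures with a median difference of 0.02, and Gfi1 was below it in 10 with a median difference of 0.29. By the root mean square distance of the 14 changes, Spdef lay at 0.43 and Gfi1 at 0.46 from Atoh1, and Zg16 at 2.77. Among all other genes of the table the 5 nearest to Atoh1 were Foxa3 (0.29), Rab15 (0.37), Ccdc141 (0.39), Mycl (0.40) and Tuba1a (0.40). The 5 nearest to Muc2 were Fam221a (0.23), Tshz1 (0.25), Adam15 (0.28), Dync1h1 (0.30) and Bicra (0.30), whose changes, like those of Muc2, were small, with medians from -0.19 to -0.27. No other member was nearer to Muc2 than Tff3, at 0.89.

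For the Braf allele, the average 4-HT change of the genotypes that carry it (BAC, BPAC) was set against the average for those that do not (AC, PAC). Of the 10 genes, 2 passed the threshold, Agr2 with a larger rise and Tff3 with a larger fall, against 3.05% of all genes higher and 3.55% lower. Agr2 changed by a mean of 1.13 ± 0.22 on the log2 scale (SD, n = 8 cultures) with the allele and 0.35 ± 0.25 (n = 6) without it, and the lowest value with it, 0.90, was above the highest without it, 0.73. The fitted difference was 0.83 ± 0.20 with an adjusted p of 0.0056 (edgeR). Tff3 changed by -1.33 ± 0.25 with the allele and by -0.30 ± 0.34 without it, again without overlap, -0.94 against -0.89 at the nearest. Its fitted difference was -0.98 ± 0.24 with an adjusted p of 0.0075 (edgeR). These calls were close to the threshold. Tff3 kept its call in 5 and Agr2 in 4 of the 14 fits that left out 1 culture, with adjusted p of 0.0049 to 0.0836 and 0.00026 to 0.0590 and values of -1.10 to -0.83 and 0.75 to 0.92. The highest of these p came without AC duplicate 1 for Tff3 and without AC duplicate 2 for Agr2. Without both PAC duplicate 1 cultures the values were -0.91 (adjusted p = 0.0388) and 0.90 (0.0117), and with the 2 alike PAC samples summed they were -0.97 (0.0116) and 0.85 (0.0072). With the 2 cultures of each donor summed neither passed, at -0.99 (adjusted p = 0.0223) and 0.88 (0.0240). In duplicate 1 alone the values were -1.24 (adjusted p = 0.0031) and 0.77 (0.0183), and in duplicate 2 alone -0.71 (0.334) and 0.91 (0.162). With the culture block both passed, with adjusted p of 4.8e-05 and 4.1e-05, and Fcgbp passed too (0.00061).

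Fcgbp differed by -1 ± 0.29 with an adjusted p of 0.0219 (edgeR) in the fit without the block. It passed in DESeq2 (-0.99, adjusted p = 0.0070) and in duplicate 1 alone (-1.11, 0.0067), while limma-voom gave 0.0200 and duplicate 2 alone 0.119. Its changes with the allele, -2.31 to -1.14, lay below all those without it, -0.92 to -0.38. For the other genes the difference missed the threshold. It was -0.20 ± 0.23 for Atoh1 (adjusted p = 0.595), -0.50 ± 0.31 for Gfi1 (0.303), -0.31 ± 0.28 for Muc2 (0.510), -0.59 ± 0.55 for Clca1 (0.514), -0.50 ± 0.47 for Zg16 (0.523) and -1.05 ± 0.46 for Reg4 (0.134). The value for Atoh1 had no stable sign, with 0.05 without both PAC duplicate 1 cultures, 0.04 in duplicate 2 alone and 0.01 without AC duplicate 1.

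Before recombination, none of the 10 genes differed by the Braf allele past the threshold (0 in edgeR, limma-voom and DESeq2, against 0.0296% of all genes in edgeR), and 2 of them, Clca1 and Zg16, had an unadjusted p under 0.05 in edgeR, as did 2319 of the 13519 genes. Clca1 was higher by 1.05 ± 0.40 on the log2 scale with the allele (adjusted p = 0.192) and Zg16 by 0.75 ± 0.34 (0.262). With 4-HT, 3 of the 10 differed by the Braf allele, 1 higher and 2 lower, against 15.6% of all genes higher and 14.6% lower. This count is near the share of all genes. Agr2 was higher by 0.75 ± 0.14 (adjusted p = 0.00018), Tff3 lower at -0.98 ± 0.17 (5.8e-05) and Fcgbp lower at -0.72 ± 0.20 (0.0057, edgeR). The first 2 kept the call in 14 of 14 fits without 1 culture, and Fcgbp in 7 of 14, with adjusted p of 0.0016 to 0.0225. Spdef missed the threshold at 0.39 (adjusted p = 0.0913) and passed it at 0.51 (0.0039, edgeR) without BPAC donor 1 duplicate 2.

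For the Trp53 allele the same was done with PAC and BPAC against the genotypes that lack it. None of the 10 genes passed the threshold in edgeR, limma-voom or DESeq2, against 0.0148% of all genes in edgeR, and 1 had an unadjusted p under 0.05, as did 140 of the 13519 genes. That gene was Reg4, with a difference of 1.04 ± 0.46 on the log2 scale (unadjusted p = 0.0334). The differences of the other 9 ran from -0.10 ± 0.55 for Clca1 to 0.36 ± 0.24 for Tff3.

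Other goblet regulators were counted in the same fits, where 3%, 11.2%, 20.3% and 22% of all genes rose and 4.25%, 12.2%, 21.5% and 23% fell in AC, PAC, BAC and BPAC. Of 10 listed (Foxa1, Foxa2, Foxa3, Klf4, Elf3, Creb3l1, Creb3l4, Xbp1, Bhlha15 and Ern2), 1 rose in AC, 3 rose and 2 fell in PAC, and 7 rose and 1 fell in both BAC and BPAC. Their median difference by the Braf allele in the 4-HT change was 0.15 on the log2 scale. Of these differences edgeR called none, and 3 had an unadjusted p under 0.05, as did 3857 of the 13519 genes. The median log2 fold changes were 0.47, 0.40, 0.73 and 0.92, beside medians over all genes of 0.01, -0.03, -0.04 and -0.04. Foxa3, a forkhead factor of goblet cells, was the gene nearest to Atoh1 above, and rose from 54.5 to 54.7 CPM to 113 to 146 CPM in AC and from 41.1 to 53.3 CPM to 90.8 to 156 CPM over the other genotypes. Its log2 fold changes were 1.25, 1.41, 1.46 and 1.5 in AC, PAC, BAC and BPAC, with adjusted p of 0.00057, 1.0e-06, 3.1e-08 and 1.6e-08 (edgeR).

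Of 28 further listed goblet products and mucin-modifying enzymes 23 were in the table. None rose and 4 fell in AC, 5 rose and 5 fell in PAC, and 3 rose and 8 fell in both BAC and BPAC, with median log2 fold changes of -0.12, -0.21, -0.30 and -0.20. Over all genes 3%, 11.2%, 20.3% and 22% rose and 4.25%, 12.2%, 21.5% and 23% fell in AC, PAC, BAC and BPAC. The 4 that fell in all genotypes were Muc13, Muc3, Clca4a and Clca4b. They are a pair of membrane mucins and a pair of chloride channel regulator family members, and they are also made by absorptive cells. The 2 Clca4 genes are close copies, so their reads may have been split in counting. Muc13 had log2 fold changes of -0.98, -0.79, -1.32 and -1.56 in AC, PAC, BAC and BPAC, and Muc3 of -1.8, -1.5, -1.64 and -2.17. Atp2c2, a Golgi calcium pump, had a difference of -1.11 by the Braf allele (adjusted p = 0.0010, edgeR), 1 of the 23 past the threshold beside 3.05% of all genes higher and 3.55% lower.

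Notch signaling restricts Atoh1 to single cells, and some of its genes rose. Of 13 in the table, 3, 7, 5 and 6 rose for AC, PAC, BAC and BPAC, and none fell (edgeR), beside the same 3%, 11.2%, 20.3% and 22% of all genes higher. Lfng, a glycosyltransferase that modifies Notch receptors, rose by a log2 fold change of 1.13, 1.21, 1.13 and 1.08 in AC, PAC, BAC and BPAC. Hes6, a helix-loop-helix factor that opposes HES1, rose by 0.97, 1.11, 1.15 and 1.17. The change of 3 of them differed by the Braf allele past the threshold, 1 higher and 2 lower, beside 3.05% and 3.55% of all genes. The ligand gene Jag2 had a difference of 0.99 (adjusted p = 0.0058), rising by 1.87 in BAC and 1.38 in BPAC. The ligand gene Dll1 had a difference of -1.17 (0.0078), with 1.20 to 4.13 CPM in 4-HT samples of BAC and BPAC and 5.85 to 8.61 CPM in those of AC and PAC. Hes5, a Notch target, had a difference of -1.62 (0.0089), at no more than 1.42 CPM in any sample of the 4 genotypes.

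Markers of the neighboring lineages were counted in the same fits, beside 3%, 11.2%, 20.3% and 22% of all genes higher and 4.25%, 12.2%, 21.5% and 23% lower in AC, PAC, BAC and BPAC. Of 8 deep crypt secretory and Paneth genes in the table, 3, 5, 3 and 4 rose in AC, PAC, BAC and BPAC and none fell (edgeR). The summed level of these went from 390.2 to 553.6 CPM with EtOH to 988.9 to 1412 CPM with 4-HT in samples without the Braf allele. In samples with it, it went from 348.6 to 534.0 CPM to 642.8 to 920.2 CPM. For the Braf allele in the 4-HT change none of the 8 passed the threshold, beside 3.05% of all genes higher and 3.55% lower. Neurog3, the factor that starts the enteroendocrine path, rose by a log2 fold change of 1.41, 1.96, 1.64 and 2.21 in AC, PAC, BAC and BPAC. Of 11 enteroendocrine genes with Neurog3 among them, 1 rose in AC, 3 rose in PAC, 1 rose and 2 fell in BAC, and 2 rose and 1 fell in BPAC, with a summed 175 to 1303 CPM with EtOH and 229 to 632 CPM with 4-HT. Of 6 tuft cell genes none rose, 4 fell in BAC and 2 in BPAC.

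Of 10 colonocyte genes, 5, 8, 9 and 10 fell in AC, PAC, BAC and BPAC and none rose (edgeR). Their summed level was 16826 to 26352 CPM with EtOH and 3705 to 11628 CPM with 4-HT. Over all genes 4.25%, 12.2%, 21.5% and 23% fell and 3%, 11.2%, 20.3% and 22% rose in the same fits. Of 6 stem cell genes, 3, 6, 4 and 5 rose past the threshold in AC, PAC, BAC and BPAC and none fell. Their summed level went from 140.4 to 279.7 CPM to 355 to 623 CPM, with Lgr5 and Ascl2 higher in all 4 genotypes. Of 6 proliferation genes, 2, 4, 5 and 6 rose past the threshold in AC, PAC, BAC and BPAC and none fell. Their summed level with 4-HT was 802 to 891 CPM in AC and PAC and 1110 to 1223 CPM in BAC and BPAC. The part of these other cell types in the changes of the goblet genes was not tested.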

How the data were processed

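Bulk RNA was sequenced from 28 organoid samples (14 cultures, 7 donors). The count table deposited by the authors holds unnormalized whole numbers from reads trimmed with Trimmomatic 0.39 and aligned with STAR 2.5.2b to GRCm38 per the submitters' processing notes and the paper. The counting program, its annotation and its strand setting are not given in the sources used here, so reads of overlapping genes cannot be told apart. Symbols matched 13479 of 13519 genes in the GENCODE annotation of GRCm38.

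Counts were scaled with TMM and fitted in R 4.3.3 by the quasi-likelihood method of edgeR 4.0.16, with 8 groups (genotype by treatment). P-values were adjusted over all 13519 genes (Benjamini-Hochberg), and 0.01, the threshold of the study, was kept. Its methods used limma, so limma-voom (limma 3.58.1) was tried as an alternative, as was DESeq2 1.42.0. CPM were divided by the exon length of the gene for levels per kb. On simulated data with 200 changed genes edgeR recovered 47% of changes of 1 on the log2 scale for AC and 71% for BAC, and called 1 other gene in each. The simulated counts were independent, without effects of culture or donor, and held fewer changed genes than were called here in AC or BAC. These rates may therefore differ from those for the real samples.

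The EtOH and 4-HT samples of a culture come from the same donor. Their deviations from the group means correlated with r of 0.25 to 0.53 (mean 0.42, 12 cultures) across genes, against a mean of -0.14 between cultures, so the numbers pair the samples and the fit with the culture as a block is given where it changes a call. 1 4-HT label has no duplicate number and was taken as duplicate 1, since duplicate 2 has its own label.

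All 10 genes are named. Of other lists, up to 6 genes per list could be named that passed in 1 direction in all genotypes or for the Braf allele, those with the highest CPM first. The genes and lists were chosen with earlier results of these data known. Other alternatives were other size factors, a low-count filter, donor sums, left-out cultures, thinning to the smallest total, each genotype or duplicate alone and a threshold of 0.05. Summing the 2 alike PAC samples and leaving out BPAC donor 1 duplicate 2 from the other comparisons were chosen after seeing the data. Figures were drawn with Python 3.11.15.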

Additional observations from a re-analysis of the deposited data

Results flagged for a closer look

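The 4-HT change differed past the threshold by the Braf allele for Tff3, at -0.98 on the log2 scale, and of Agr2, at 0.83. Among 60 groups of 4 samples (10 genes, 6 groups), 3 held a sample far from the others, and chance gives about 5% of groups. Gfi1 in the EtOH sample of BAC donor 2 duplicate 2 was at 2.84 CPM against 2.48 to 2.52 CPM in the others. Agr2 in the 4-HT sample of PAC donor 2 duplicate 2 was at 461 CPM against 629 to 647 CPM. Reg4 in the 4-HT sample of BAC donor 2 duplicate 1 was at 63.3 CPM against 35.9 to 39.6 CPM.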

How the results depend on the processing

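Counts of genes past the threshold kept within 1.5 times in BAC (6) and BPAC (7) under every alternative run, including the range of 5 to 8 in each without 1 culture, and the Trp53 count and the Braf count with EtOH stayed at 0. In AC the count of 1 became 2 with DESeq2, with library size alone, at a threshold of 0.05 and without BPAC donor 1 duplicate 2, 3 with the replicate block, and 0 without either AC culture. In PAC the count of 3 became 5 with library size alone, 8 with the replicate block, 6 at a threshold of 0.05, 0 without both duplicate 1 cultures and 2 to 4 without 1 culture. For the Braf allele in the change, the count of 2 became 1 with library size alone or the alike PAC samples summed, 0 with donor sums, without both PAC duplicate 1 cultures or in duplicate 2 alone, and 0 to 2 without 1 culture. The replicate block changed 12 calls of single genes, all toward the threshold, and these are given above. The share of all genes called in that fit is not given here. The gap moved by less than its SD under every alternative run.

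For single genes in the 4 genotypes and the Braf difference, signs turned for Atoh1 in the Braf difference (0.050 without both PAC duplicate 1 cultures, 0.041 in duplicate 2 alone, and -0.43 to 0.011 without 1 culture), Muc2 in BPAC (-0.52 to 0.076 without 1 culture), Tff3 in PAC (0.091 with library size alone) and Agr2 in AC (-0.024 to 0.33 without 1 culture). None of these values passed the threshold. For the Trp53 allele, values without 1 culture crossed 0 for Atoh1 (-0.23 to 0.21), Fcgbp (-0.13 to 0.17) and Clca1 (-0.32 to 0.079). For the Braf allele in the levels, they did so for Atoh1, Gfi1, Muc2 and Tff3 with EtOH and for Reg4 with 4-HT. Beside those named above, calls were gained for Gfi1 in AC with library size alone and in BAC with library size alone, DESeq2 size factors, donor sums or each genotype alone. Agr2 in PAC gained one with library size alone, Clca1 in BPAC with DESeq2, and Fcgbp in PAC, Clca1 in BAC and Zg16 in AC with each genotype alone. Without BPAC donor 1 duplicate 2, calls were gained for Gfi1 in AC and BAC, Agr2 in PAC and Clca1 in BAC. Calls were lost with each genotype alone for Atoh1 in AC (log2 fold change 1.48, adjusted p = 0.0121), Gfi1 in BPAC (1.12, 0.0139) and Zg16 in BPAC (-1.46, 0.0497, edgeR). With library size alone they were lost for Zg16 in BPAC (-1.27, 0.0119) and Agr2 in the Braf difference (0.80, 0.0105, edgeR). The causes were not tested. With a single donor and 2 samples per arm, AC allows fewer calls.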
